A study of Rattus with 8 samples.

Results

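Rat neural stem cells cultured with piezoelectric nanostickers were compared with cells of the same series cultured with a piezoelectric material, by messenger RNA sequencing on day 5. The comparison uses 4 of the 8 libraries of the series, 2 per group, and covers the 14336 genes that passed a filter on low counts, of 18374 genes in the table. The other 4 libraries come from cells treated with ultrasound (2, ultrasound) and from untreated cells (2, control). The labels name all 8 samples as neural stem cells and give no strain, age or line. They do not say whether the nanosticker cells also received ultrasound, how the nanostickers differ from the other material in composition or dose, or whether the 2 samples of a group were separate cultures. Each p-value therefore reflects no more than the variation among these libraries, part of which may be technical.

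Piezoelectric materials develop electric charge when they are deformed. Neural stem cells renew themselves and give rise to neurons and to both kinds of macroglia, astrocytes and oligodendrocytes, and a culture of them usually holds stem cells together with progeny of these lineages. Neuroblasts of the forebrain that become GABA-releasing interneurons use the Dlx family of homeobox transcription factors. The oligodendrocyte lineage depends on Olig2 and Sox10 and ends in cells that make myelin, while Notch and epidermal growth factor signals help to keep precursors undifferentiated.

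Library totals ran from 15239133 to 15628667 counts, and 16497 to 16613 genes per library had a count above 0. Levels are given as CPM (library-scaled counts), which can be compared between libraries but not between genes of different length. Of 8 stem cell markers (Sox2, Nes, Pax6, Prom1, Fabp7, Msi1, Sox1 and Hes5), all had counts in each of the 4 libraries. Astrocyte, oligodendrocyte and neuronal markers were detected beside them, so the libraries describe mixed cultures. Over all tested genes the Euclidean distance of log2 CPM between nanosticker and piezoelectric libraries was 77.9 to 82.7, against 45.3 within nanosticker, 44.2 within piezoelectric and 45.7 to 57.6 between piezoelectric and control libraries.

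Between the nanosticker and the piezoelectric group, 5212 genes passed the threshold of 0.05 on the adjusted p of edgeR's quasi-likelihood test, 36.4% of those tested. Of these, 2713 genes rose (18.9% of those tested) and 2499 fell (17.4%). Most differences were modest, with a median size of 0.51 on the log2 scale among the called genes. An increase of over 1 on the log2 scale was called for 598 genes (4.17%) and a decrease of over 1 for 558 genes (3.89%). An increase of over 2 was called for 114 genes and a decrease of over 2 for 152. The median log2 fold change of all tested genes was 0.001.

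**Figure D1:**
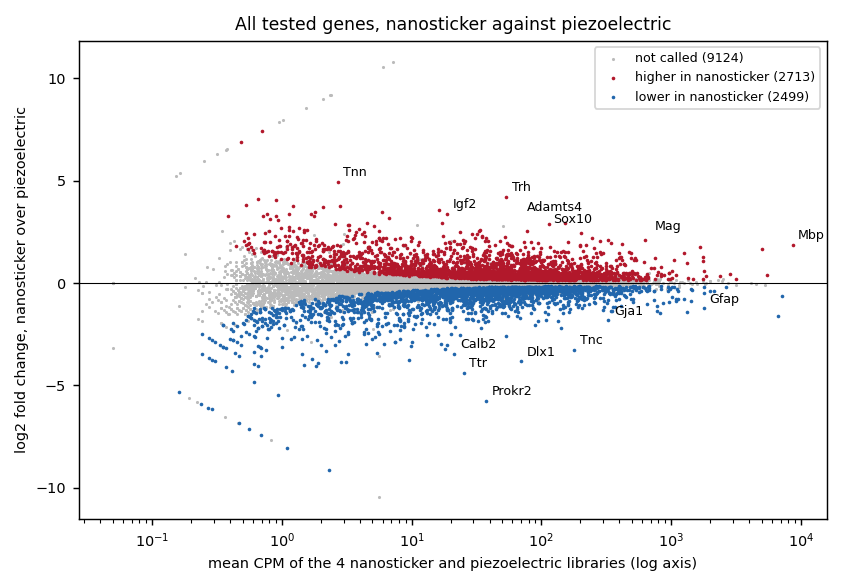
Each point is 1 tested gene, with its mean CPM over the 2 nanosticker and 2 piezoelectric libraries on a log axis and its log2 fold change, nanosticker over piezoelectric, on the y axis. The 2713 called increases are red and the 2499 called decreases blue, and called genes appear at all levels from below 1 CPM to Mbp, the rightmost labelled gene.

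The largest increases were in genes of matrix, hormones and lipid metabolism. Trh, the precursor of thyrotropin-releasing hormone, stood at 102 and 102 CPM in the nanosticker libraries, against 6.09 and 4.78 CPM in the piezoelectric libraries. The gene (ID 25569) lies on chromosome 4, minus strand, at 124110716 to 124113242 in the Rnor 6.0 coordinates of the table, and its difference (log2 fold change 4.22 ± 0.15 SE, adjusted p = 4.79e-09) left both nanosticker libraries far above both piezoelectric ones. Tnn, which encodes the matrix glycoprotein tenascin-N, had the largest increase of the genes named here, a log2 fold change of 4.97 ± 0.42 SE. It stood at 5.56 and 4.92 CPM in nanosticker against 0.128 and 0.191 CPM in piezoelectric libraries. The piezoelectric values lie near the detection limit, so the size of this change is poorly determined. Prex2, an exchange factor for the GTPase Rac, stood at 29.8 and 29.9 CPM in the nanosticker libraries, against 2.5 and 2.49 CPM in the piezoelectric libraries (log2 fold change 3.58 ± 0.17 SE, adjusted p = 6.09e-09), and Gpd1, the cytosolic glycerol-3-phosphate dehydrogenase, at 201 and 206 CPM in the nanosticker libraries, against 29.8 and 26 CPM in the piezoelectric libraries (log2 fold change 2.87 ± 0.08 SE, adjusted p = 1.05e-10). Replicates lay close together for Trh, Prex2 and Gpd1. The groups did not overlap for any of the 4 genes, which was a condition for naming the largest changes.

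Igf2, a growth factor that meningeal and choroid plexus cells also make, rose by 3.39 on the log2 scale. Syt4, a synaptotagmin of secretory vesicles, rose by 2.96, with 279.7 and 262 CPM in the nanosticker libraries, against 41 and 28.8 CPM in the piezoelectric libraries. Other large increases were Serpinb1a, a protease inhibitor (3.75), Krt19, a keratin (3.48), Tgfbr3, the transforming growth factor beta co-receptor betaglycan (2.94), Ecel1, a membrane peptidase of neurons (2.92), and Chst4, a sulfotransferase (2.84). Their adjusted p-values ran up to 0.000309, that of Chst4, the gene of this group with the widest spread between nanosticker libraries relative to its level.

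Among called genes that averaged 5 CPM or more in either group, Prokr2 had the largest decrease. Prokr2, a prokineticin receptor that in mice is needed for neuroblasts to reach the olfactory bulb, stood at 1.19 and 1.55 CPM in the nanosticker libraries, against 75.9 and 71.2 CPM in the piezoelectric libraries. The gene (ID 192649) lies on chromosome 3, minus strand, at 125006180 to 125021020, and its log2 fold change was -5.74 ± 0.13 SE (adjusted p = 3.76e-11). The piezoelectric level lay near that of the untreated and ultrasound cells, with 62.4 and 54.8 CPM in the ultrasound libraries and 76.6 and 79.5 CPM in the control libraries, so the nanosticker libraries were the ones that stood apart. Tnc, the matrix glycoprotein tenascin C of stem cell niches, showed the same arrangement, with 35.3 and 32.6 CPM in the nanosticker libraries, against 329 and 320.4 CPM in the piezoelectric libraries (log2 fold change -3.25 ± 0.08 SE, adjusted p = 5.58e-11) and 299 and 275 CPM in the ultrasound libraries and 260.0 and 295 CPM in the control libraries.

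Ttr, which encodes the thyroid hormone carrier transthyretin, stood at 1.92 and 2.7 CPM in the nanosticker libraries, against 44.2 and 52.1 CPM in the piezoelectric libraries (log2 fold change -4.38 ± 0.17 SE, adjusted p = 1.47e-09). Here the piezoelectric group stood apart, since the other libraries held 10.1 and 11 CPM in the ultrasound libraries and 2.71 and 2 CPM in the control libraries, and the nanosticker values overlapped those of untreated cells. Grin2c, a subunit of the NMDA-type glutamate receptor, averaged 3.51 ± 1.13 CPM in nanosticker and 32.6 ± 3.04 CPM in piezoelectric cells (SD, n = 2 each; log2 fold change -3.21). Amer3, Xkr7, Scml4 and Mpped1 stood at 0.199 to 1.01 CPM in the nanosticker libraries, against 4.78 to 10.4 CPM in the piezoelectric ones, with log2 fold changes from -3.39 to -3.84.

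**Figure D2:**
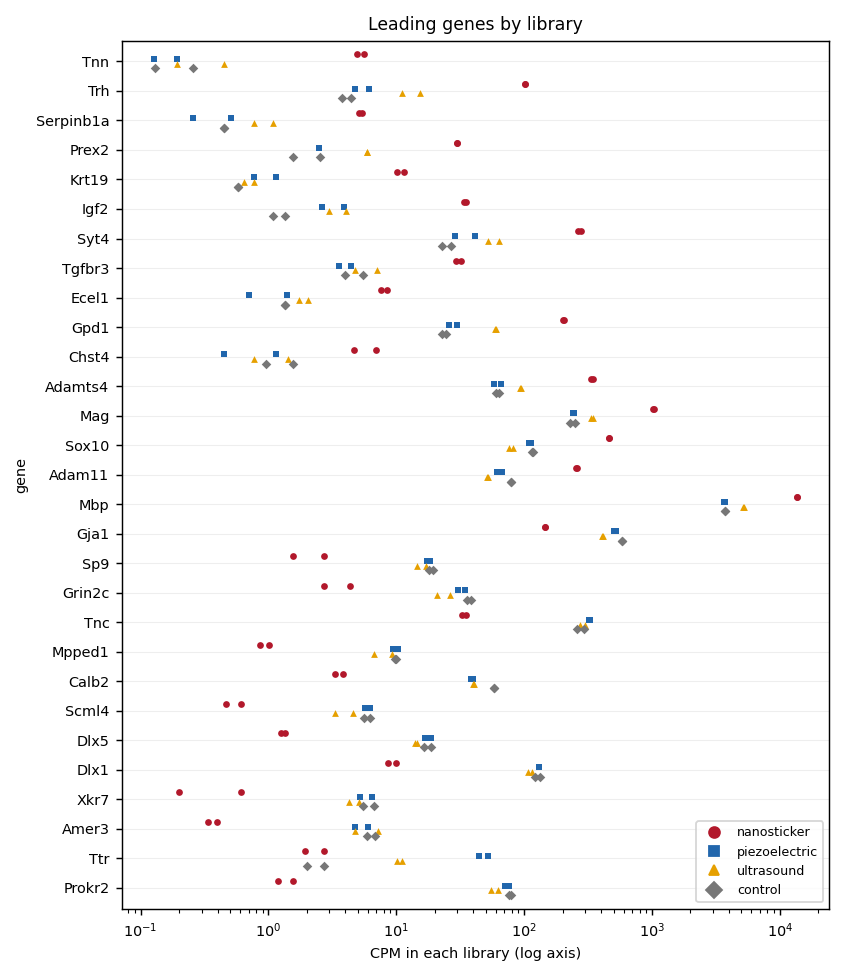
Each row is 1 of 29 genes with the largest increases, the smallest adjusted p-values or the largest decreases, and each symbol its CPM in 1 library on a log axis, for nanosticker (red circles), piezoelectric (blue squares), ultrasound (orange triangles) and control (grey diamonds). Nanosticker libraries stand to the right of the other 3 groups from Tnn down to Mbp and to the left from Gja1 down, except for Ttr, where the piezoelectric libraries stand apart.

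The oligodendrocyte lineage was higher in nanosticker cells, most of all its myelin genes. Of 20 tested myelin and oligodendrocyte genes, 19 rose and 1 fell, with a median log2 fold change of 1.19, beside 18.9% and 17.4% of all tested genes and a median of 0.001. Mbp, myelin basic protein, stood at 13674 and 13683 CPM in the nanosticker libraries, against 3641 and 3751 CPM in the piezoelectric libraries (log2 fold change 1.89 ± 0.05 SE, adjusted p = 1.08e-10). The gene (ID 24547) lies on chromosome 18, plus strand, at 79326738 to 79437310. Mag, an adhesion protein of the innermost myelin layer, stood at 1009 and 1044 CPM in the nanosticker libraries, against 239 and 244 CPM in the piezoelectric libraries (log2 fold change 2.09 ± 0.06 SE, adjusted p = 1.11e-10). For both genes both nanosticker libraries stood far above both piezoelectric ones, and replicates differed little. In such mixed cultures fewer cells of a type and less RNA per cell cannot be told apart, and the same holds for more cells and more RNA.

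Ugt8, which makes the myelin lipid galactosylceramide, rose by 1.24 and Myrf, the transcription factor that drives myelin genes, by 1.52 on the log2 scale. The other myelin genes that rose did so by 0.45 to 2.28, and they include the late gene Mog, the myelin oligodendrocyte glycoprotein (31.5 against 21.8 CPM on average, 0.53). Mal, a lipid raft protein of myelin, was the 1 member that fell (log2 fold change -0.41 ± 0.09 SE, adjusted p = 0.00373), with 21.2 and 21.3 CPM in the nanosticker libraries, against 30.1 and 26.4 CPM in the piezoelectric libraries, and without piezoelectric replicate 1 its adjusted p was 0.0595. Gpd1 and Adamts4, a proteoglycan-cleaving protease that oligodendrocytes make in the mouse brain, moved as the myelin genes did, Adamts4 with 335 and 347 CPM in the nanosticker libraries, against 57.7 and 65.9 CPM in the piezoelectric libraries (log2 fold change 2.46 ± 0.07 SE, adjusted p = 1.08e-10).

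Among 16 tested oligodendrocyte precursor genes, 11 rose and 0 fell (median 0.35). Sox10, the transcription factor of the whole lineage, stood at 458 and 459.8 CPM in the nanosticker libraries, against 109.8 and 112 CPM in the piezoelectric libraries (log2 fold change 2.05 ± 0.06 SE, adjusted p = 1.08e-10). The gene (ID 29361) lies on chromosome 7, minus strand, at 120393238 to 120403523. Nkx2-2, a transcription factor active around the start of differentiation, rose by 1.03 (160.5 against 78.6 CPM), Bcas1, a marker of newly formed oligodendrocytes, by 0.98 (1764 against 897 CPM) and Olig2 by 0.28 (505 against 417 CPM). Enpp6, another marker of new oligodendrocytes, rose by 1.71, but its counts were not whole, so its reads may be shared with other features. Pdgfra, the growth factor receptor of early precursors, and Gpr17, a receptor of committed precursors, did not pass the test, with -0.04 ± 0.06 SE and 0.01 ± 0.24 SE on the log2 scale. Gpr17 varied between the nanosticker libraries, at 474 and 409 CPM in nanosticker against 438 and 441 CPM in piezoelectric libraries. With library size alone as the scaling, or without either control library, 1 precursor gene was called lower.

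Genes also used by Schwann cells, the myelin-forming cells of peripheral nerve, moved with the myelin genes. Of 11 tested, 7 rose and 2 fell (median 0.82), among them Erbb3, a neuregulin receptor shared with oligodendrocytes (62.7 against 15.1 CPM, 2.05), and Cdh19, a cadherin of Schwann cell precursors (15.6 against 6.33 CPM, 1.30). Pmp22, a main protein of peripheral myelin, fell (128 against 205 CPM, -0.68), and Prx, which encodes periaxin of myelinating Schwann cells, did not pass the test (7.74 against 6.62 CPM). Without piezoelectric replicate 1 the count of lower genes was 1. The list shares members with the myelin list, Mal among them, and its summed level was 8096 and 7644 CPM in nanosticker, against 2739 and 2639 CPM in piezoelectric libraries. The part of such cells in the myelin result was not tested.

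Genes of interneuron precursors were lower as a group. Of 15 tested GABA neuron and Dlx genes, 12 fell and 2 rose, with a median log2 fold change of -2.19. Dlx1 stood at 8.67 and 9.91 CPM in the nanosticker libraries, against 131 and 131 CPM in the piezoelectric libraries (log2 fold change -3.82 ± 0.09 SE, adjusted p = 3.76e-11). The gene (ID 296500) lies on chromosome 3, plus strand, at 58164931 to 58169521. Its neighbour Dlx2 fell by 3.02 on the log2 scale (4.14 against 33.7 CPM on average) and Dlx5 by 3.76 (1.3 against 17.7 CPM). Sp9, a zinc finger factor that acts with the Dlx genes in mouse interneurons, fell by 3.05 and Calb2, the calcium-binding protein calretinin of olfactory bulb interneurons, by 3.45. The ultrasound and control libraries held Dlx1 at 107 to 133 CPM, beside the piezoelectric level.

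The enzymes and carriers of the transmitter fell with the transcription factors. Gad1, which makes GABA, stood at 13.5 and 10.9 CPM in the nanosticker libraries, against 55.3 and 56.4 CPM in the piezoelectric libraries (log2 fold change -2.19 ± 0.10 SE, adjusted p = 4.69e-09). Gad2, its second form, fell by 2.02, and Slc32a1, which loads GABA into vesicles, by 2.24. The 2 members that rose were Npy, a neuropeptide of some interneurons (50.9 against 19.8 CPM, counts not whole), and Pvalb, parvalbumin of fast-spiking interneurons, whose counts were low at 36 and 37 in nanosticker against 14 and 12 in piezoelectric libraries.

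Genes of young neurons were also lower. Of 16 tested immature neuron genes, 11 fell and 2 rose (median -0.66). Dcx, the microtubule protein of migrating neuroblasts, stood at 207 and 189 CPM in the nanosticker libraries, against 521 and 485 CPM in the piezoelectric libraries (log2 fold change -1.34 ± 0.07 SE, adjusted p = 1.56e-08), and Tubb3, neuronal beta tubulin, at 78 and 81.7 CPM in the nanosticker libraries, against 213 and 219 CPM in the piezoelectric libraries (log2 fold change -1.43 ± 0.07 SE, adjusted p = 6.69e-09). Celf4, an RNA-binding protein, fell by 1.81 and Nrep by 1.15. Elavl3, a neuronal RNA-binding protein (0.70), and Gap43, a protein of growing axons (0.49), rose.

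Genes of the mature neuronal cytoskeleton did not follow the young neuron genes. Of 16 tested, 7 rose and 2 fell (median 0.12). Nefl and Nefm, the light and medium neurofilament chains, rose by 2.41 and 1.67, at low levels of 7 against 1.31 CPM and 11.8 against 3.71 CPM. Thy1, a surface protein of neurons, also rose (9.84 against 3.49 CPM). Map2, the dendritic microtubule protein, fell slightly (log2 fold change -0.33 ± 0.05 SE, adjusted p = 0.000346), and Rbfox3, the nuclear marker of mature neurons, did not pass the test at 3.31 and 4.65 CPM in nanosticker against 4.87 and 6.25 CPM in piezoelectric libraries (adjusted p = 0.0914).

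Synaptic genes moved in both directions, to be read beside the 18.9% of all tested genes that rose and the 17.4% that fell. Among 17 synaptic vesicle genes 4 rose and 7 fell (median -0.13), but 4 fell when either nanosticker library or piezoelectric replicate 1 was left out. Sv2a, a vesicle protein of most synapses, rose by 0.66 and Syt1, the calcium sensor of release, by 0.72, while Snap25, a release SNARE, fell by 0.81 and Sv2b by 1.19. Among 22 transmitter receptor genes 6 rose and 9 fell (median -0.24). Leaving out single nanosticker or piezoelectric libraries left 2 or 3 that rose, and leaving out ultrasound replicate 2 left 3. Gabrb2, a GABA type A receptor subunit, fell by 1.94 and Chrna4, a nicotinic receptor subunit, by 1.53. Gria3, a subunit of AMPA-type receptors, rose by 0.60.

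Stem cell genes fell more often than they rose, but not all moved together. Of 18 tested, 12 fell and 2 rose (median -0.34). Egfr, the epidermal growth factor receptor of activated stem cells and progenitors, stood at 48.1 and 43.4 CPM in the nanosticker libraries, against 90.2 and 92.9 CPM in the piezoelectric libraries (adjusted p = 4.66e-07). Fabp7, a fatty acid-binding protein of radial glia, fell by 0.81, Nr2e1, the orphan receptor Tlx needed for self-renewal, by 0.79 and Pax6, a radial glia transcription factor, by 0.82. Sox2, a core factor of stem cells that precursors of other lineages also express, rose instead, with 379.6 and 418 CPM in the nanosticker libraries, against 289 and 293 CPM in the piezoelectric libraries (log2 fold change 0.45 ± 0.06 SE, adjusted p = 3.73e-05). Hopx, a marker of slowly dividing stem cells, rose by 0.93 (18.3 against 9.59 CPM). Nes, the intermediate filament nestin, fell (log2 fold change -0.35 ± 0.09 SE, adjusted p = 0.0176), with 315 and 309 CPM in nanosticker against 406 and 388 CPM in piezoelectric libraries, but with any 1 nanosticker or piezoelectric library left out its adjusted p was 0.0638 to 0.109.

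Notch pathway genes were mostly lower, ligands and receptors alike. Of 17 tested, 11 fell and 2 rose (median -0.64). Among ligands, Dll1 fell by 0.67 (29.1 against 46.4 CPM) and Dll3, which acts on Notch within the cell, by 0.73 (26.3 against 43.7 CPM). Dll4 had a count of 0 in both nanosticker libraries and 18 and 11 in the piezoelectric ones, at least 4.63-fold lower if 3 counts per library are taken as the floor. Jag2, a ligand of the other class, rose by 0.77 (19.3 against 11.3 CPM). Among receptors, Notch2 fell by 0.60 and Notch3 by 0.93 (39.4 against 75.1 CPM), while Notch1 did not pass the test (382 against 361 CPM). The target gene Hes1, a repressor of neuronal differentiation, fell by 0.63 (17.9 against 27.8 CPM) and Hes5 by 0.72 (4.25 against 7 CPM). Leaving out nanosticker replicate 2 or piezoelectric replicate 2 left 1 gene that rose.

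The counts of BMP, Wnt and Hippo genes are to be read beside the 18.9% of all tested genes that rose and the 17.4% that fell. Of 19 bone morphogenetic protein (BMP) and Id genes, 7 rose and 7 fell (median 0.05). Id1, a target that blocks differentiation factors, rose by 0.80 (92.9 against 53.5 CPM) and Smad7, an inhibitor of the pathway, by 1.10 (21.7 against 10.1 CPM), while Id4, a family member of astrocytes and stem cells, fell by 0.88 (37.1 against 68.5 CPM) and the receptor Bmpr1b by 1.38 (7.17 against 18.6 CPM). Of 19 Wnt genes, 4 rose and 6 fell (median -0.13), and without nanosticker replicate 1 these counts were 2 and 3. Without piezoelectric replicate 2, 2 rose. Lgr5, a receptor for R-spondins, fell by 1.51 (7.21 against 20.6 CPM), and Rnf43, which removes Wnt receptors, rose by 1.45 (4.21 against 1.54 CPM). Of 15 Hippo and YAP target genes, 3 rose and 5 fell (median -0.20), and 1 rose when either piezoelectric library was left out. Ccn1, a secreted matrix protein and YAP target, fell by 0.59 (22.7 against 34.3 CPM).

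Astrocyte genes were mostly lower. Of 15 tested, 12 fell and 1 rose (median -0.95). Gja1, the gap junction protein connexin 43, stood at 145 and 146 CPM in the nanosticker libraries, against 519.6 and 507 CPM in the piezoelectric libraries (log2 fold change -1.82 ± 0.05 SE, adjusted p = 1.23e-10). The gene (ID 24392) lies on chromosome 20, plus strand, at 37876650 to 37889097. Aqp4, the water channel, stood at 759 and 706 CPM in the nanosticker libraries, against 1957 and 1873 CPM in the piezoelectric libraries (log2 fold change -1.39 ± 0.06 SE, adjusted p = 1.71e-09), and Gfap, the astrocyte intermediate filament, at 1056 and 1094 CPM in the nanosticker libraries, against 2603 and 2408 CPM in the piezoelectric libraries (log2 fold change -1.22 ± 0.07 SE, adjusted p = 2.02e-08). All nanosticker values of these 3 genes were below all piezoelectric ones. Ndrg2, a protein of astrocyte processes, fell by 1.13. Glul, glutamine synthetase, which oligodendrocytes can also express, rose by 0.57 (1209.6 against 812 CPM).

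Reactive astrocyte genes, which astrocytes switch on after injury or inflammation, mostly rose, although Gfap, which is also raised in reactive astrocytes, fell with the astrocyte list. Of 19 tested, 16 rose and 2 fell (median 0.76). Cp, the copper-carrying ferroxidase ceruloplasmin, stood at 600.2 and 569.6 CPM in the nanosticker libraries, against 221 and 205 CPM in the piezoelectric libraries (log2 fold change 1.46 ± 0.06 SE, adjusted p = 1.47e-09). Hspb1, a small heat shock protein, stood at 404 and 438 CPM in the nanosticker libraries, against 149 and 160.0 CPM in the piezoelectric libraries (log2 fold change 1.45 ± 0.06 SE, adjusted p = 2.85e-09), and Socs3, a feedback inhibitor of cytokine signalling, at 94.1 and 90.8 CPM in the nanosticker libraries, against 28.2 and 25.1 CPM in the piezoelectric libraries (log2 fold change 1.79 ± 0.10 SE, adjusted p = 1.9e-08). The complement factor C3 rose by 0.91 (110.4 against 58.5 CPM) and Lcn2, the iron-binding lipocalin of acute reactions, by 1.94 (31.6 against 8.22 CPM). S1pr3, a sphingosine phosphate receptor, fell by 0.45 and B3gnt5, with low counts of 7 and 9 in nanosticker against 36 and 28 in piezoelectric libraries, by 1.92. Between ultrasound and control, 16 of the 19 genes rose and 0 fell.

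Transcripts of microglia, the immune cells of the brain, were rare in all libraries and rarer still in nanosticker cells. Of 15 tested microglia and macrophage genes, 10 fell and 0 rose (median -2.80, or -2.61 with Cx3cr1 at its bound), and 4 fell under a stricter low-count filter, which removed most of the list. C1qb and C1qc, chains of the complement protein C1q, had counts of 10 and 4 and of 3 and 4 in the nanosticker libraries, against 52 and 51 and 63 and 48 in the piezoelectric ones. Csf1r, the growth factor receptor on which microglia depend, had counts of 5 and 8 against 40 and 44. Cx3cr1, the fractalkine receptor, was at 0 in both nanosticker libraries, against 8 and 7, which is at least 2.39-fold lower at a floor of 3 counts per library.

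The list, which also holds genes that other cells express, summed to 73.1 and 78.6 CPM in nanosticker and to 96.4 and 97.9 CPM in piezoelectric libraries. The ultrasound libraries gave 107 and 101 CPM and the control libraries 109 and 94.8 CPM, so the nanosticker libraries were the lowest of the 4 groups. The part of these cells in the results on immune, lysosomal and interferon genes given later was not tested.

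Other cell types that a neural culture can hold showed mixed changes, beside 18.9% of all tested genes that rose and 17.4% that fell. Of 8 endothelial and pericyte genes 3 rose and 3 fell, including Kdr, an endothelial growth factor receptor, which rose by 2.03 (6.95 against 1.7 CPM), and Pdgfrb, the pericyte receptor, which fell by 0.91 (51.4 against 96.5 CPM). Their summed level without Tagln was 98.9 and 102 CPM in nanosticker, against 139.8 and 149 CPM in piezoelectric libraries. In the fibroblast and meningeal list of 12, 4 genes rose and 3 fell, or 1 fell without nanosticker replicate 2. Col3a1, a fibrillar collagen, stood at 95 and 99.5 CPM in nanosticker against 44.5 and 53.3 CPM in piezoelectric libraries (0.99), and Lum, the proteoglycan lumican, rose by 1.86 (4.21 against 1.15 CPM). Among 12 genes of ependyma and choroid plexus 2 rose and 3 fell, with 1 that rose when nanosticker replicate 2 or either piezoelectric library was left out. Foxj1, the master gene of motile cilia, fell by 0.91 (46.4 against 87 CPM).

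**Figure D3:**
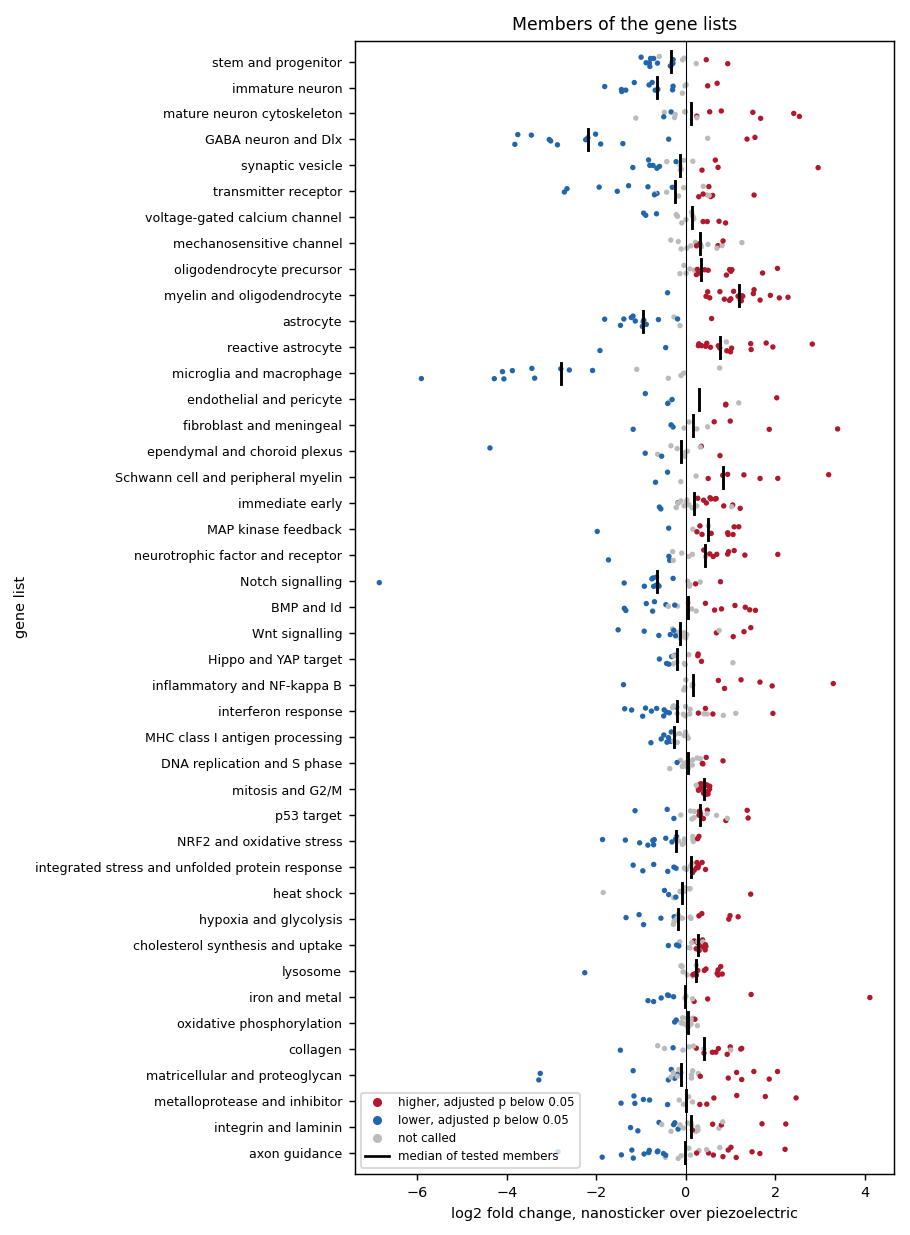
Each row is 1 of 43 gene lists and each point a tested member, placed by its log2 fold change, nanosticker over piezoelectric (red, called higher; blue, called lower; grey, not called; black bar, median). The myelin list lies almost wholly to the right of 0, with a median of 1.19, and the GABA neuron, astrocyte and microglia lists mostly to the left, with medians of -2.19, -0.95 and -2.80.

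Genes that respond early to growth factors, depolarisation or calcium were partly higher. Of 24 immediate early genes, 10 rose and 3 fell (median 0.19), or 1 fell without nanosticker replicate 1 or piezoelectric replicate 1. Fos, a subunit of the AP-1 transcription factor, stood at 106 and 107 CPM in the nanosticker libraries, against 53.5 and 49.4 CPM in the piezoelectric libraries (log2 fold change 1.05 ± 0.06 SE, adjusted p = 5.61e-08), and its partner Junb rose by 1.21 (62.5 against 26.9 CPM). Egr1, an early growth response factor, rose by 0.68 (31.3 against 19.6 CPM). Bdnf, a neurotrophin that neuronal activity induces, was near the detection limit with counts of 6 and 15 against 13 and 8 and did not pass the test (adjusted p = 0.949).

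Feedback genes of the MAP kinase pathway rose in 9 of 13 cases and fell in 2 (median 0.50). Spred3, an inhibitor of Ras signalling, stood at 72.2 and 73.4 CPM in nanosticker against 31 and 33.2 CPM in piezoelectric libraries (log2 fold change 1.18 ± 0.07 SE, adjusted p = 4e-08), Dusp6, a phosphatase of ERK kinases, rose by 0.94 (23.5 against 12.2 CPM) and Etv4, an ETS factor, by 1.05 (12 against 5.76 CPM). Dusp4, a related phosphatase, fell by 1.98 (2.17 against 8.6 CPM). Of 18 neurotrophic factor and receptor genes 9 rose and 3 fell (median 0.42). Gfra2, a receptor of the neurturin ligand, rose by 1.08 (13.4 against 6.33 CPM), while Ntrk2, the receptor of Bdnf, fell by 0.38 (976 against 1269.6 CPM).

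A minority of the genes of channels that open on membrane tension or voltage changed. Of 15 mechanosensitive channel genes, 4 rose and 0 fell (median 0.31), beside 18.9% and 17.4% of all tested genes. Pkd2, 1 of the 4, was not called with DESeq2 (log2 fold change 0.24, adjusted p = 0.0719). Piezo1, a channel opened by membrane tension, stood at 12.8 and 13 CPM in the nanosticker libraries, against 7.89 and 7.84 CPM in the piezoelectric libraries (log2 fold change 0.72 ± 0.15 SE, adjusted p = 0.00266), and Tmem63b, an osmosensitive channel, rose by 0.31 (215 against 174 CPM). Of 15 voltage-gated calcium channel genes, 4 rose and 3 fell (median 0.13), beside the same shares of all tested genes. Cacna1c, the pore of the main L-type channel, stood at 19.3 and 22.2 CPM in the nanosticker libraries, against 39.5 and 37.7 CPM in the piezoelectric libraries (log2 fold change -0.90 ± 0.09 SE, adjusted p = 3.68e-06), while Cacna1a, the pore of P/Q-type channels, rose by 0.74 (56.5 against 33.8 CPM).

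Genes of mitosis were slightly higher. Of 20 tested, 18 rose and 0 fell, with a median of only 0.40 on the log2 scale. Of all tested genes 18.9% rose and 17.4% fell, which also applies to the S phase counts below. Cdk1, the mitotic kinase, stood at 47.3 and 48.1 CPM in the nanosticker libraries, against 32.6 and 33.5 CPM in the piezoelectric libraries (log2 fold change 0.53 ± 0.07 SE, adjusted p = 7.46e-05), and Aurkb, a kinase of chromosome segregation, at 95 and 94.7 CPM in the nanosticker libraries, against 64.4 and 69.7 CPM in the piezoelectric libraries (log2 fold change 0.50 ± 0.07 SE, adjusted p = 6e-05). Top2a, topoisomerase 2 alpha, rose by 0.44. Mki67, the proliferation marker Ki-67, did not pass the test (log2 fold change 0.27 ± 0.11 SE, adjusted p = 0.0931). It stood at 162 and 141 CPM in nanosticker against 121 and 130.1 CPM in piezoelectric libraries, and its counts were not whole. Mki67 was called higher by edgeR without the control libraries (adjusted p = 0.00109), on the compared groups alone (0.0031) and with the length trend removed (0.000114). The same held without either single control library, but not in the other settings that tested Mki67. Of 19 S phase genes 4 rose and 1 fell (median 0.05), of which 2 rose without piezoelectric replicate 2 and 0 fell without either nanosticker or either piezoelectric library, while 2 fell without either control library. Tk1, thymidine kinase, rose by 0.83 (46.3 against 26.1 CPM).

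Targets of the tumour suppressor p53 rose in 10 of 21 cases and fell in 3 (median 0.31). Gadd45a, a growth arrest gene, stood at 57.3 and 57.5 CPM in the nanosticker libraries, against 21.9 and 21.8 CPM in the piezoelectric libraries (log2 fold change 1.39 ± 0.09 SE, adjusted p = 8.03e-08), and Plk3, a stress kinase, rose by 1.37 (18.4 against 7.13 CPM). Mdm2, which degrades p53, rose by 0.48 and Cdkn1a, the cell cycle inhibitor p21, by 0.33. Btg2, an antiproliferative target that neural precursors also use, fell by 1.14 (32.2 against 70.9 CPM).

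Oxidative stress genes under the transcription factor NRF2 were lower in 11 of 21 cases and higher in 2 (median -0.22). The count of increases was 0 or 1 when any nanosticker or piezoelectric library was left out and 5 when either control library was. Slc7a11, which imports cystine for glutathione, stood at 63 and 53.3 CPM in the nanosticker libraries, against 221 and 203 CPM in the piezoelectric libraries (log2 fold change -1.86 ± 0.09 SE, adjusted p = 1.34e-07). Gstm1, a glutathione transferase, stood at 453 and 429 CPM in the nanosticker libraries, against 1107 and 1146 CPM in the piezoelectric libraries (log2 fold change -1.35 ± 0.06 SE, adjusted p = 2.39e-09), and Nqo1, a quinone reductase, fell by 0.74 (225 against 375 CPM). Hmox1, the heme-degrading oxygenase, fell by 0.72 (149.8 against 247 CPM). Astrocyte genes fell in the same comparison, 12 of 15, and their part in these decreases was not tested.

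Genes of the integrated stress and unfolded protein responses moved in both directions. Of 18 tested, 8 rose and 6 fell (median 0.12), beside 18.9% and 17.4% of all tested genes. Of the members that fell, Psat1 (228 against 517 CPM, -1.18) and Phgdh (219 against 427 CPM, -0.96) make serine, and Atf4 (-0.41) and Atf5 (-0.72) are the transcription factors of the integrated stress response. The 8 that rose did so by at most 0.44, and fewer were called with a library left out, 4 without nanosticker replicate 1, 3 without nanosticker replicate 2, 1 without piezoelectric replicate 1 and 4 without piezoelectric replicate 2. Of 12 heat shock genes 1 rose, Hspb1, and 3 fell (median -0.09), or 5 fell without either control library.

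Metabolic genes moved modestly, and 17 of 20 oxidative phosphorylation genes were not called. Among all tested genes 18.9% rose and 17.4% fell. Of 20 hypoxia and glycolysis genes 5 rose and 6 fell (median -0.18). Slc2a1, the glucose carrier GLUT1, stood at 104 and 108 CPM in nanosticker against 223 and 213 CPM in piezoelectric libraries (-1.05), and Pfkl, a phosphofructokinase, fell by 0.95 (65.6 against 126 CPM), while Ndrg1, which hypoxia induces, rose by 0.99 (92.6 against 46.8 CPM). Of 20 oxidative phosphorylation genes 1 rose and 2 fell (median 0.05), and leaving out any 1 library of the nanosticker, piezoelectric or ultrasound group left 0 that rose. Without either control library 3 rose, and 0 or 1 fell without any nanosticker, piezoelectric or ultrasound library.

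Of 20 genes of cholesterol synthesis and uptake, 11 rose and 3 fell (median 0.27), beside 18.9% and 17.4% of all tested genes. Dhcr7, the last enzyme of one branch of synthesis, stood at 195 and 186 CPM in nanosticker against 139.8 and 139.8 CPM in piezoelectric libraries (log2 fold change 0.45 ± 0.05 SE, adjusted p = 2.05e-05), and Srebf2, the transcription factor of the pathway, rose by 0.44. Abca1, which exports cholesterol, fell by 0.39 (434 against 569 CPM). Without nanosticker replicate 2 there were 6 increases and 1 decrease, without piezoelectric replicate 1 there were 7 and 1, and without piezoelectric replicate 2 there were 7 increases. Of 20 lysosome genes 12 rose and 1 fell (median 0.22), with Npc1, which moves cholesterol out of lysosomes, at 244 and 241 CPM in nanosticker against 139 and 144 CPM in piezoelectric libraries (0.78) and the lysosomal transcription factor Tfeb higher by 0.72. The 1 that fell was Ctss, a protease of microglia, on counts of 2 and 6 against 24 and 17. Of 13 iron and metal genes 4 rose and 6 fell (median -0.02), among them the metallothionein Mt1, which fell by 0.85 (267 against 481 CPM), and Cp.

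Inflammatory genes were partly higher, and more interferon genes fell than rose. Of 13 inflammatory and NF-kappa B genes 6 rose and 1 fell (median 0.15). Ccl2, a chemokine that attracts monocytes, stood at 10.6 and 10.4 CPM in the nanosticker libraries, against 2.76 and 2.74 CPM in the piezoelectric libraries (log2 fold change 1.93 ± 0.16 SE, adjusted p = 1.16e-06), and Cxcl12, a chemokine of precursor migration, at 52.8 and 51.2 CPM in the nanosticker libraries, against 22.6 and 21.6 CPM in the piezoelectric libraries (log2 fold change 1.23 ± 0.07 SE, adjusted p = 4.55e-08). Vcam1, an adhesion molecule that astrocytes and stem cells also carry, was the 1 that fell (58.8 against 155 CPM, -1.39, counts not whole).

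Of 27 interferon response genes 4 rose and 11 fell (median -0.20). Rsad2, the antiviral enzyme viperin, stood at 1.79 and 1.82 CPM in the nanosticker libraries, against 4.36 and 4.97 CPM in the piezoelectric libraries (log2 fold change -1.37 ± 0.19 SE, adjusted p = 8.76e-05), with 9.69 and 9.9 CPM in the ultrasound libraries and 4.26 and 4.12 CPM in the control libraries. Isg15, a ubiquitin-like protein, fell by 0.97 (3.07 against 6.01 CPM) and Stat2, a transcription factor of the pathway, by 0.43 (66 against 89.3 CPM). Without piezoelectric replicate 1, 7 fell, and without nanosticker replicate 1 or 2 or piezoelectric replicate 1, 2 rose. Of 15 genes of MHC class I antigen processing 7 fell and 0 rose (median -0.28), or 4 fell without piezoelectric replicate 2. B2m, the light chain of class I molecules, stood at 578 and 562 CPM in nanosticker against 720.2 and 724 CPM in piezoelectric libraries (log2 fold change -0.34 ± 0.06 SE, adjusted p = 0.000491). The RT1 genes on this list have near-identical copies, and 6 of the 15 genes had counts that were not whole.

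Genes of the extracellular matrix moved in both directions, to be read beside the 18.9% of all tested genes that rose and the 17.4% that fell. Of 18 collagen genes 9 rose and 2 fell (median 0.40), with 1 decrease when nanosticker replicate 1 or 2 or piezoelectric replicate 2 was left out and 4 without either control library. Col6a2, a chain of the beaded filament collagen, stood at 108 and 111 CPM in nanosticker against 48.9 and 43.2 CPM in piezoelectric libraries (1.25), and Col11a1 rose by 0.92 (166 against 87.5 CPM). Of 23 matricellular and proteoglycan genes 7 rose and 7 fell (median -0.11), or 4 fell without nanosticker replicate 2 or piezoelectric replicate 1. Thbs2, thrombospondin 2, stood at 78.2 and 76.9 CPM in the nanosticker libraries, against 18.7 and 18.8 CPM in the piezoelectric libraries (log2 fold change 2.05 ± 0.09 SE, adjusted p = 2.81e-09), opposite in direction to Tnc and to Sparc, which fell by 0.39 (1848 against 2424 CPM).

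Of 16 metalloprotease and inhibitor genes 6 rose and 6 fell (median 0.005). These and the integrin and laminin counts stand beside 18.9% and 17.4% of all tested genes. Adamts4 was the largest increase among those with whole counts, and Mmp2, a gelatinase (-1.45, 16.4 against 44.8 CPM), and Mmp14, its membrane activator (-1.14, 119 against 263 CPM), fell together. Of 23 integrin and laminin genes 5 rose and 6 fell (median 0.12). The decreases were few when single libraries were left out, 3 without nanosticker replicate 1, piezoelectric replicate 1 or either ultrasound library, 2 without piezoelectric replicate 2 and 1 without nanosticker replicate 2, and 8 rose without either control library. Itga8, an integrin subunit that binds tenascin and nephronectin, stood at 59.5 and 56.6 CPM in nanosticker against 12.6 and 12.1 CPM in piezoelectric libraries (2.23), and Lama4, a laminin chain of vessels, rose by 1.70 (45.1 against 13.9 CPM).

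Axon guidance genes likewise moved in both directions. Of 30 tested, 10 rose and 12 fell (median -0.02), beside 18.9% and 17.4% of all tested genes. The semaphorins Sema3a, Sema3e, Sema4d and Sema6a rose by 0.83 to 1.65, Sema4d, a semaphorin of oligodendrocytes, with 47.3 and 47.1 CPM in nanosticker against 15.6 and 14.4 CPM in piezoelectric libraries (log2 fold change 1.65 ± 0.09 SE, adjusted p = 1.19e-08). Slit1, a repellent that guides neuroblasts, fell by 2.86 (1.8 against 13.1 CPM), Plxna4, a semaphorin receptor, by 1.87 (16.5 against 60.6 CPM) and Epha3, an ephrin receptor, by 1.44 (8.24 against 22.4 CPM).

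**Figure D4:**
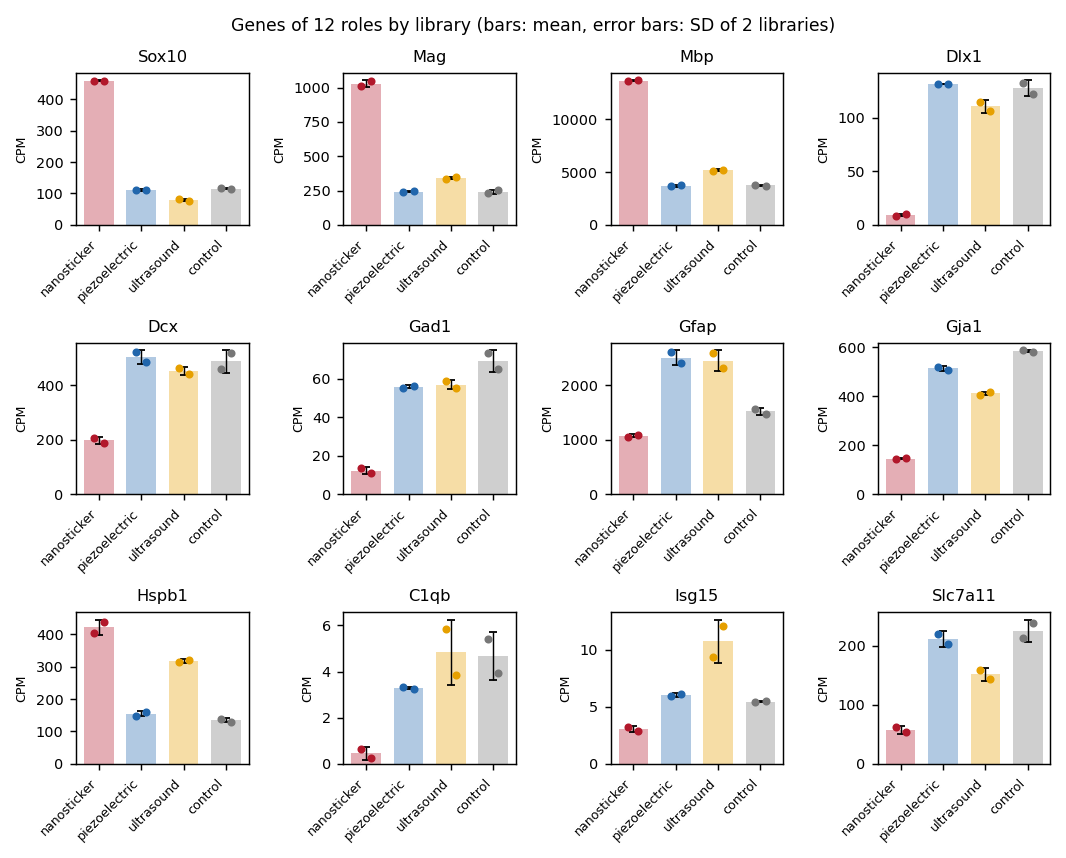
Bars give the mean CPM of 2 libraries, error bars their SD and points the libraries, for 12 genes in the nanosticker, piezoelectric, ultrasound and control groups, with each y axis starting at 0. Sox10, Mag and Mbp are highest and Dlx1, Dcx, Gad1, Gja1, C1qb and Slc7a11 lowest in the nanosticker group, while Hspb1 is high in both the nanosticker and the ultrasound group and Isg15 is highest in the ultrasound group.

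The difference between ultrasound and control libraries, which shares no library with the nanosticker comparison, was set beside it. It called 1031 genes, 7.19% of those tested, of which 578 rose (4.03%) and 453 fell (3.16%). Of these, 749 were also called between nanosticker and piezoelectric, 14.4% of the nanosticker calls and 72.6% of the ultrasound calls. The direction was the same for 532 of them, with 310 that rose and 222 that fell in both, and opposite for 217. Over all tested genes the 2 sets of log2 fold changes had a Pearson correlation of 0.025 and a Spearman correlation of 0.13, across genes, which are not independent replicates. A direct test of the difference between the 2 contrasts called 3350 genes (23.4% of those tested), 3009 of which were among the 5212 nanosticker calls.

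Genes of the reactive, inflammatory and matrix lists were among the shared increases. Hspb1 rose by 1.45 between nanosticker and piezoelectric and by 1.24 between ultrasound and control, and the difference between the 2 changes did not pass the test (adjusted p = 0.11). The same held for Ccl2 (1.93 and 1.64, adjusted p = 0.42), Col6a2 (1.25 and 1.14, adjusted p = 0.521) and Fos (1.05 and 0.87, adjusted p = 0.198). A p above the threshold does not show that such changes are equal. Sox10 moved in opposite directions, with a rise of 2.05 beside a fall of 0.54 between ultrasound and control (difference 2.59, adjusted p = 1e-09), and 82.5 and 75.9 CPM in the ultrasound libraries and 116 and 114 CPM in the control libraries.

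Myelin genes rose in both contrasts in many cases, but by more between nanosticker and piezoelectric. Of 20 myelin genes 13 rose and 1 fell between ultrasound and control, and 15 of 20 had a larger increase in the nanosticker contrast by the test of the difference. For Mbp the log2 fold changes were 1.89 and 0.48 (difference 1.41, adjusted p = 6.17e-08). Of 16 precursor genes, 0 rose and 5 fell between ultrasound and control. Gfap, which fell by 1.22 between nanosticker and piezoelectric, rose by 0.69 between ultrasound and control (difference -1.91, adjusted p = 5.55e-08), with 2585 and 2309 CPM in the ultrasound libraries and 1567 and 1473 CPM in the control libraries. Of 27 interferon genes 17 rose and 0 fell between ultrasound and control, and 16 had a lower change in the nanosticker contrast by the test, Rsad2 among them (difference -2.59, adjusted p = 8.63e-06). Dlx1, which fell by 3.82, had a log2 fold change of -0.20 between ultrasound and control that did not pass the test (adjusted p = 0.102).

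**Figure D5:**
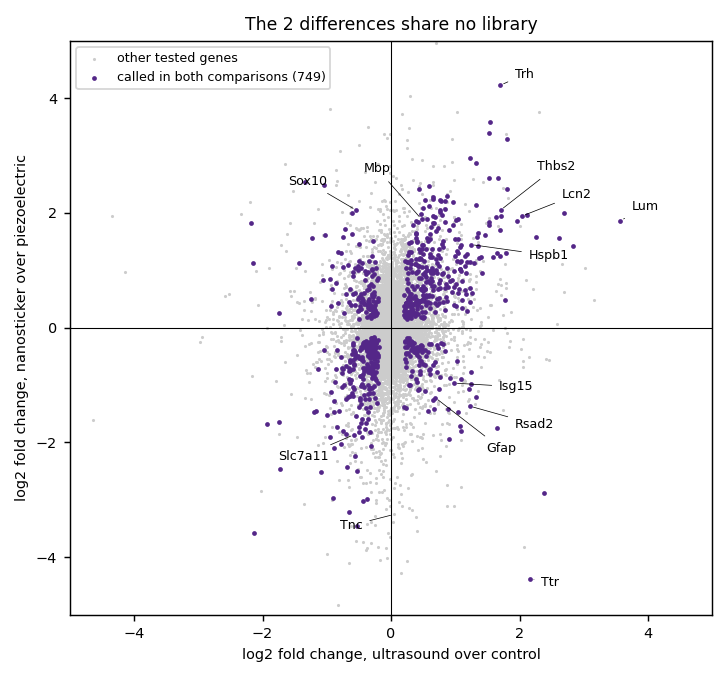
Each point is 1 tested gene, with its log2 fold change of ultrasound over control on the x axis and of nanosticker over piezoelectric on the y axis, both cut at 5 in size, which leaves out 48 genes. The 749 genes called in both (purple, 4 of them outside the axes) lie on all sides of 0, with 532 of equal direction and Isg15, Rsad2, Gfap, Ttr and Sox10 among those of opposite direction.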

How the data were processed

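Messenger RNA of 8 samples was sequenced on day 5. Per the labels' protocols, polyadenylated RNA was captured with oligo(dT), fragmented and primed with random hexamers. The deposited counts are estimated counts, per the file headers and values: 10.5% are not whole at a tolerance of 0.005, in 2627 genes, whose values are called uncertain here. The FPKM and TPM columns are scaled for length and library by the authors, per the file headers; FPKM served to derive effective lengths and TPM to compare levels between genes. Coordinates are those of the table, and the submitters' processing notes name Rnor 6.0. Overlapping genes may trade reads, since aligner, counting tool and strand setting were not given in the sources used here. The authors' deposited comparison columns were not used. RefSeq's gene table for a later assembly held 93.22% of the identifiers, and its coordinates were left aside.

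Counts were rounded and analysed with edgeR 4.0.16 in R 4.3.3: filterByExpr, TMM scaling, 1 mean per group over 8 libraries (4 residual degrees of freedom, biological coefficient of variation 7.09%), two-sided quasi-likelihood F tests, and Benjamini-Hochberg adjustment over 14336 genes with a threshold of 0.05. Values of p in the text are adjusted in this way. A standard error is the log2 fold change divided by the square root of F, and rose and fell are used of called genes only. The steps were tested on simulated counts.

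The members, the 43 gene lists (780 symbols, 775 matched, 726 genes tested) and the tests were chosen with earlier results of these data known. Counts of list genes are of tested members, to be read beside the 18.9% of all tested genes that rose and the 17.4% that fell. A gene could be named if it was called, averaged 5 CPM or more in either group and showed no overlap between libraries: the 12 largest increases and decreases, the 6 smallest p-values beyond these, up to 4 members of each list in each direction, and 17 genes named whatever their values. Other genes were chosen after their values were seen, among them Myrf, Mog, Prx, Pdgfra, Gpr17, Gad2, Slc32a1, Hes1, Hes5, Notch1, Lcn2, Isg15, Nqo1, Cdkn1a and genes quoted for their count of 0. Some genes that met the rule are not reported here.

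Alternatives were DESeq2 1.42.0, limma-voom (limma 3.58.1), size factors by relative log expression or by library size alone, tests of all genes or under a stricter filter (at least 1 CPM in 2 libraries, mean count at least 20), a block for the replicate number, fits without the other groups, removal of the trend along transcript length, genes with whole counts only, and each library left out in turn. The fit without the ultrasound libraries was added after seeing the data.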

Additional observations from a re-analysis of the deposited data

How the results depend on the processing

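Over 20 alternative settings between 3599 and 6559 genes were called, and no gene called in the fit of 8 libraries was called with the opposite sign in any of them. DESeq2 called 3698 genes, limma-voom 5215, relative log expression factors 5214, no filter 5159, the stricter filter 5038, length-trend removal 5928 and whole counts alone 4983. Fits without the control libraries called 6559, without the ultrasound libraries 4714 and without both 6336. Leaving out 1 library gave 3599 to 6536. With library size alone 5318 genes were called and 42.7% of the calls were higher, against 52.1% with TMM scaling. The replicate block called 4824 genes and kept 4796 of the 5212. The labels do not say whether the replicate numbers pair the samples. Correlations of the deviations of same-numbered libraries ran from -0.136 to 0.135, the highest between nanosticker and piezoelectric. Such weak correlations cannot decide the pairing, so no conclusion was drawn from the block. The test of the difference between contrasts called 2201 genes with DESeq2, of which 1023 were lower, against 3350 and 1658; leaving out 1 library moved the lower count between 1083 (without ultrasound replicate 1) and 2509 (without control replicate 2). The cause was not tested. Of 282 named genes 279 were called, and 231 of these calls held in every setting that tested the gene. Genes removed by the stricter filter or for counts that were not whole could not be checked in those fits. The log2 ratio of control replicate 1 to 2 fell with transcript length (Spearman -0.53 across 12080 genes). The same ratio gave 0.22 in nanosticker, 0.22 in piezoelectric and 0.13 in ultrasound libraries. The ratio of nanosticker over piezoelectric means gave -0.02. Depth limits genes with few counts, such as the microglial ones, and 2 libraries per group limit every comparison.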

Other observations

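Some very abundant genes differed between the groups in TPM, which scales for transcript length, and were chosen after their values were seen. Apoe, the main lipid carrier of astrocytes, stood at 5531 and 5697 TPM in the nanosticker libraries, against 17814 and 17909 TPM in the piezoelectric libraries (log2 fold change -1.63 ± 0.06 SE, adjusted p = 7.64e-10 by edgeR), with 15382 and 14844 TPM in the ultrasound libraries and 17568 and 17409 TPM in the control libraries. Dbi, which binds acyl-CoA and is rich in glia, stood at 4290.3 and 4359 TPM in the nanosticker libraries, against 7502 and 7790.2 TPM in the piezoelectric libraries, and the metallothionein Mt3 at 5999.8 and 5812 TPM in the nanosticker libraries, against 8800.0 and 9750.2 TPM in the piezoelectric libraries. All of these were lower in both nanosticker libraries than in any other library.

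In the other direction, Mbp stood at 11646 and 11667 TPM in the nanosticker libraries, against 3219 and 3257 TPM in the piezoelectric libraries, which placed it above Apoe in nanosticker cells and below it in piezoelectric cells. Apod, a lipocalin of mature oligodendrocytes and other glia, stood at 1813 and 1696 TPM in the nanosticker libraries, against 481 and 490.3 TPM in the piezoelectric libraries (log2 fold change 1.90 ± 0.07 SE), and Sirt2, a deacetylase found in myelin, at 2325 and 2320.1 TPM in the nanosticker libraries, against 1117 and 1156 TPM in the piezoelectric libraries. Cst3, the protease inhibitor cystatin C, stood at 7228 and 7222 TPM in the nanosticker libraries, against 4742 and 5047 TPM in the piezoelectric libraries (log2 fold change 0.61 ± 0.06 SE).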
